A study of Bos taurus with 9 samples.

Results

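The transcripts of 10 cytokine receptor genes were followed in RNA-seq of bovine uterine gland fragments grown in 3D culture. They were IL6R, IL6ST, LIFR, OSMR, IL4R, IL17RA, IL17RB, IL17RC, IL1R1 and TNFRSF21. They were chosen by name, with earlier results of these data in view, and all 10 were found among the 20679 genes of the deposited tables. Because that choice drew on the values, the differences of these genes between groups are given as descriptions, without p-values. How many of them passed a threshold is given beside the share of all genes, and nothing is read from those counts.

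Fragments of uterine glands, picked by hand from uteri collected at an abattoir, were embedded in Matrigel and kept until day 5 in DMEM/F12 with insulin, transferrin, sodium selenite, ascorbic acid and BSA. Without EGF they formed cysts (CYST). With EGF they formed uterine gland-like (UG-LIKE) structures, either in Matrigel alone (MAT) or in Matrigel with type I collagen (MAT + COL). The doses, 5 ng/ml for EGF and 0.5 mg/ml for collagen I, come from the methods of the study, and the sample labels give none. Each group had 3 libraries, numbered 1 to 3, and the study refers to the MAT and MAT + COL libraries as coming from several individuals. Which library came from which individual, and whether CYST shared them, is not given in the sources used here, so the tests measure only the spread between these libraries. Total gene counts ran from 6568968 to 17948600 per library.

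Cytokine receptors are mostly built from several chains. Some cytokines of the IL-6 family are bound by a chain of their own, such as IL6R for IL-6. The signal passes through the shared chain IL6ST (gp130), alone or with LIFR or OSMR, to JAK kinases and STAT factors. IL4R passes signals of IL-4 and IL-13, mainly to STAT6. IL17RA is shared by the receptors of the IL-17 family, with IL17RC for IL-17A and IL-17F and IL17RB for IL-25. IL1R1 binds IL-1, and TNFRSF21, also named death receptor 6, is a death domain receptor of the TNF receptor superfamily. In the endometrium the gland epithelium is known as both a source and a target of cytokines, and leukemia inhibitory factor (LIF) from glands is a classical signal at implantation.

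The label of gland epithelium was checked against 10 epithelial markers. All 10 were detected, with summed levels of 19280 to 22000 TPM (a level scaled to transcript length and to the total of the library) in CYST, 31420 to 48800 in MAT and 31710 to 43170 in MAT + COL. FOXA2, a transcription factor of uterine glands, was low, at 1.31 to 12.4 TPM. The 9 fibroblast markers were also present, at 2051 to 4697 TPM in CYST, 798.9 to 3195 in MAT and 1980 to 3608 in MAT + COL. Endothelial markers summed to at most 29.8 TPM and leukocyte markers to at most 48.4. Among the leukocyte markers, CD14 measured 13.2 to 45.2 TPM and CD68 2.21 to 10.2 TPM over the 9 libraries. CD79A, which marks B cells, had no count in any library. In these bulk libraries, fewer cells of a type and less RNA per cell cannot be told apart.

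The 10 receptor genes together summed to between 295.1 and 359.3 TPM in a library. In CYST the order of mean levels was IL6ST, IL1R1, IL6R, TNFRSF21, OSMR, IL17RC, IL17RA, IL4R, IL17RB and LIFR. The ranges of neighbours in this order were separated only between IL17RC and IL17RA, IL17RA and IL4R, and IL17RB and LIFR. In MAT and in MAT + COL, TNFRSF21 came first and was separated from IL6ST, which came next. IL6R stood at place 3 in CYST and at place 8 in MAT and in MAT + COL. The widest range over the 9 libraries was that of IL6R, whose highest level was 35.6 times its lowest, followed by IL17RB at 10.8 times and TNFRSF21 at 9.46 times. The other 7 genes ranged by 1.77 times (OSMR) to 2.84 times (IL1R1).

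**Figure D1:**
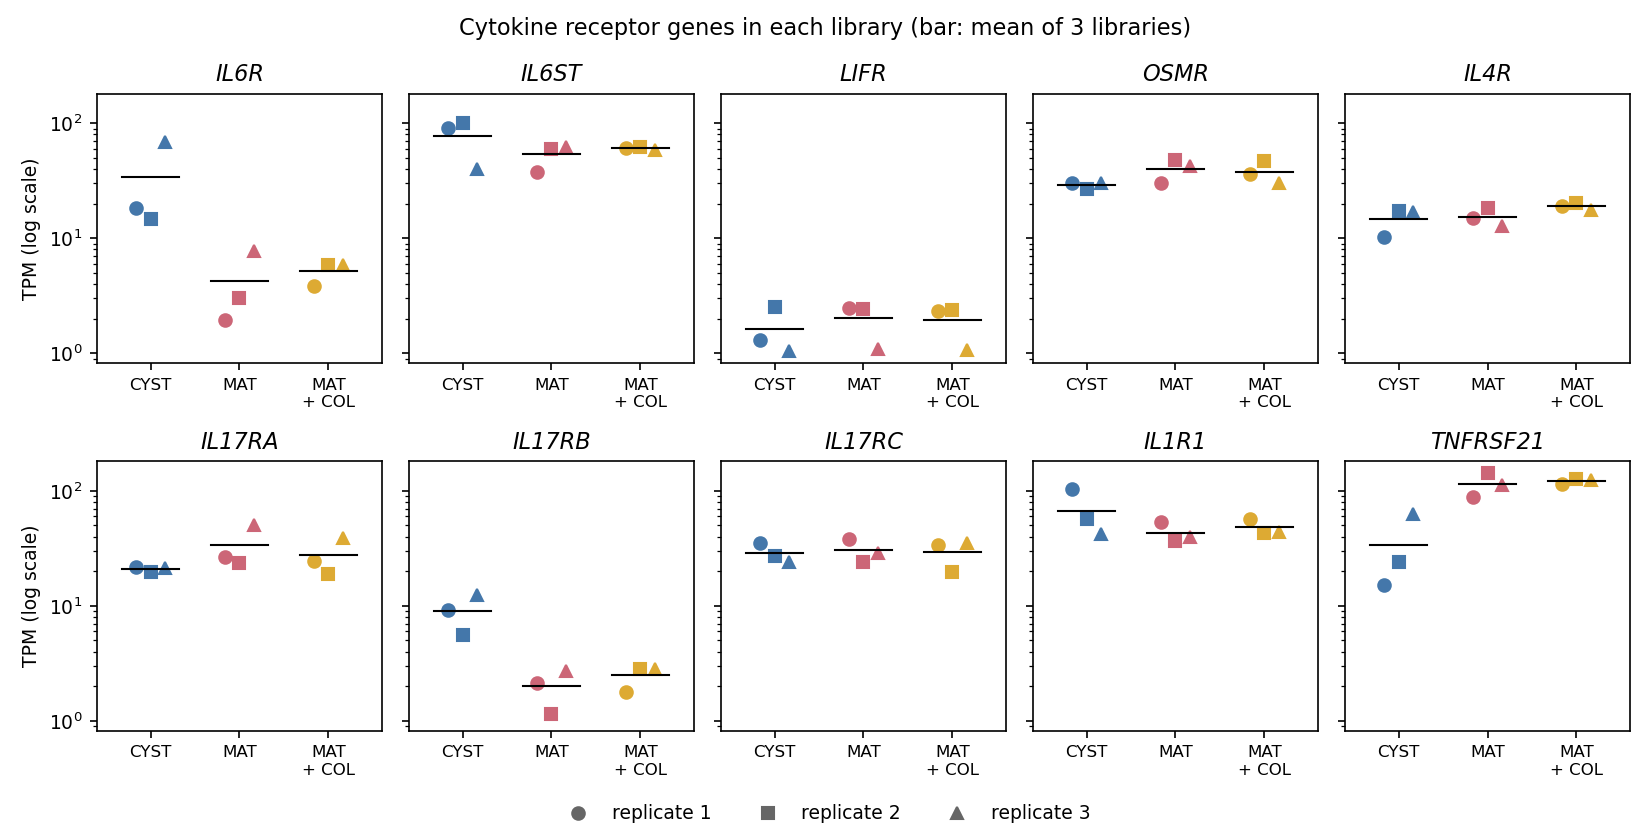
TPM of each receptor gene in each of the 9 libraries, on a log axis. Point shapes give the replicate number and bars the mean of 3 libraries. IL6R and IL17RB were lower, and TNFRSF21 higher, in all MAT and MAT + COL libraries than in any CYST library.

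IL6R, the chain that binds IL-6, was higher in every CYST library than in any library with EGF. The gene lies on chromosome 3 (16121733 to 16173990, minus strand; coordinates here are those of the deposited tables, on ARS-UCD2.0). Its level was 18.3, 14.7 and 69.3 TPM in CYST 1, 2 and 3, 1.95, 3.01 and 7.78 TPM in MAT, and 3.82, 5.90 and 5.82 TPM in MAT + COL. CYST 3 stood far above the other two CYST libraries, and the MAT and MAT + COL ranges overlapped. The Log2FC (log2 fold change) of MAT over CYST was -3.09 ± 0.82 (SE, edgeR), and with the replicate number as a block it was -2.89 ± 0.30. Between libraries of the same number the level was 9.39, 4.88 and 8.90 times lower in MAT. The size depended on CYST 3, without which the Log2FC was -1.83, and without MAT 3 it was -3.89. For MAT + COL over CYST it was -2.88 ± 0.71, or -1.62 without CYST 3. The lowest count behind these values was 16 reads, in MAT 1.

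IL6ST, the signalling chain shared by the family, lies on chromosome 20 (23104335 to 23253566, plus strand). It measured 90.1, 101 and 39.9 TPM in CYST, 37.9, 60.2 and 62.8 TPM in MAT, and 61.3, 62.2 and 58.6 TPM in MAT + COL. The groups overlapped, and the CYST library with the highest IL6R had the lowest IL6ST. The Log2FC was -0.48 ± 0.31 for MAT over CYST and -0.36 ± 0.26 for MAT + COL over CYST, each within 2 standard errors of 0.

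OSMR and LIFR pair with IL6ST in the receptors for oncostatin M and LIF. OSMR (chromosome 20, 35503114 to 35571162, minus strand) measured 30.5, 26.9 and 30.0 TPM in CYST, 30.5, 47.7 and 42.5 TPM in MAT, and 36.2, 47.3 and 30.3 TPM in MAT + COL. Its MAT and CYST ranges did not overlap, but the lowest MAT library exceeded the highest CYST library by a factor of only 1.003, and the Log2FC was 0.45 ± 0.23. LIFR (chromosome 20, 35900700 to 35956591, plus strand) was the lowest of the 10 genes in CYST and MAT + COL, at 1.05 to 2.54 TPM over all 9 libraries. Its groups overlapped throughout, with a Log2FC of 0.31 ± 0.44 for MAT over CYST. Both genes lie less than 1 Mb apart on the same chromosome.

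IL4R lies on chromosome 25 (24872652 to 24923704, plus strand). It measured 10.3, 17.2 and 16.8 TPM in CYST, 15.1, 18.4 and 12.7 TPM in MAT, and 19.1, 20.3 and 17.5 TPM in MAT + COL. The MAT and CYST ranges overlapped, with a Log2FC of 0.03 ± 0.29. In TPM, all MAT + COL libraries lay above all CYST libraries, the highest CYST library being at 17.2 and the lowest MAT + COL library at 17.5. In normalized log2 CPM these groups overlapped, with CYST 3 at 5.47 and MAT + COL 1 at 5.285. The Log2FC of MAT + COL over CYST was 0.28 ± 0.26.

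IL17RB, the chain that binds IL-25, was lower in every library with EGF than in any CYST library. It lies on chromosome 22 (47050291 to 47066244, minus strand). It measured 9.28, 5.52 and 12.4 TPM in CYST, 2.12, 1.14 and 2.72 TPM in MAT, and 1.80, 2.84 and 2.80 TPM in MAT + COL. The Log2FC of MAT over CYST was -2.24 ± 0.54, or -2.21 ± 0.37 with the block, and leaving out any 1 library kept it between -2.60 and -1.80. Between libraries of the same number the level was 4.38, 4.83 and 4.57 times lower in MAT. For MAT + COL over CYST the Log2FC was -1.96 ± 0.48. In MAT the gene rested on 16 to 41 reads per library.

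IL17RA (chromosome 5, 108807935 to 108823739, plus strand), the shared chain, measured 21.6, 19.7 and 21.5 TPM in CYST, 26.7, 23.7 and 49.9 TPM in MAT, and 24.5, 18.8 and 38.9 TPM in MAT + COL. Its MAT range lay above its CYST range in TPM, while the ranges overlapped in normalized log2 CPM. The Log2FC was 0.67 ± 0.33, and without MAT 3 it was 0.22. IL17RC (chromosome 22, 16828786 to 16840485, minus strand), the partner for IL-17A and IL-17F, ranged from 19.6 to 38.5 TPM over the 9 libraries. Its groups overlapped throughout and its Log2FC of MAT over CYST was 0.07 ± 0.24.

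IL1R1, the signalling receptor for IL-1, lies on chromosome 11 (6876060 to 6915249, plus strand). It measured 103, 56.4 and 42.1 TPM in CYST, 53.1, 36.3 and 39.8 TPM in MAT, and 57.0, 42.6 and 44.2 TPM in MAT + COL. The ranges overlapped, while the MAT library was the lower one in all 3 same-numbered pairs. The Log2FC of MAT over CYST was -0.63 ± 0.30, and without CYST 1 it was -0.20.

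TNFRSF21 was higher in every library with EGF than in any CYST library. It lies on chromosome 23 (20418222 to 20496746, minus strand). It measured 15.0, 24.2 and 62.5 TPM in CYST, 89.0, 142 and 111 TPM in MAT, and 114, 127 and 125 TPM in MAT + COL. CYST 3 was again the library that stood apart within its group. The Log2FC of MAT over CYST was 1.65 ± 0.56, or 1.98 ± 0.39 with the block, and without CYST 3 it was 2.64. Between libraries of the same number the level was 5.93, 5.87 and 1.78 times higher in MAT. For MAT + COL over CYST it was 1.69 ± 0.55, or 2.68 without CYST 3.

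**Figure D2:**
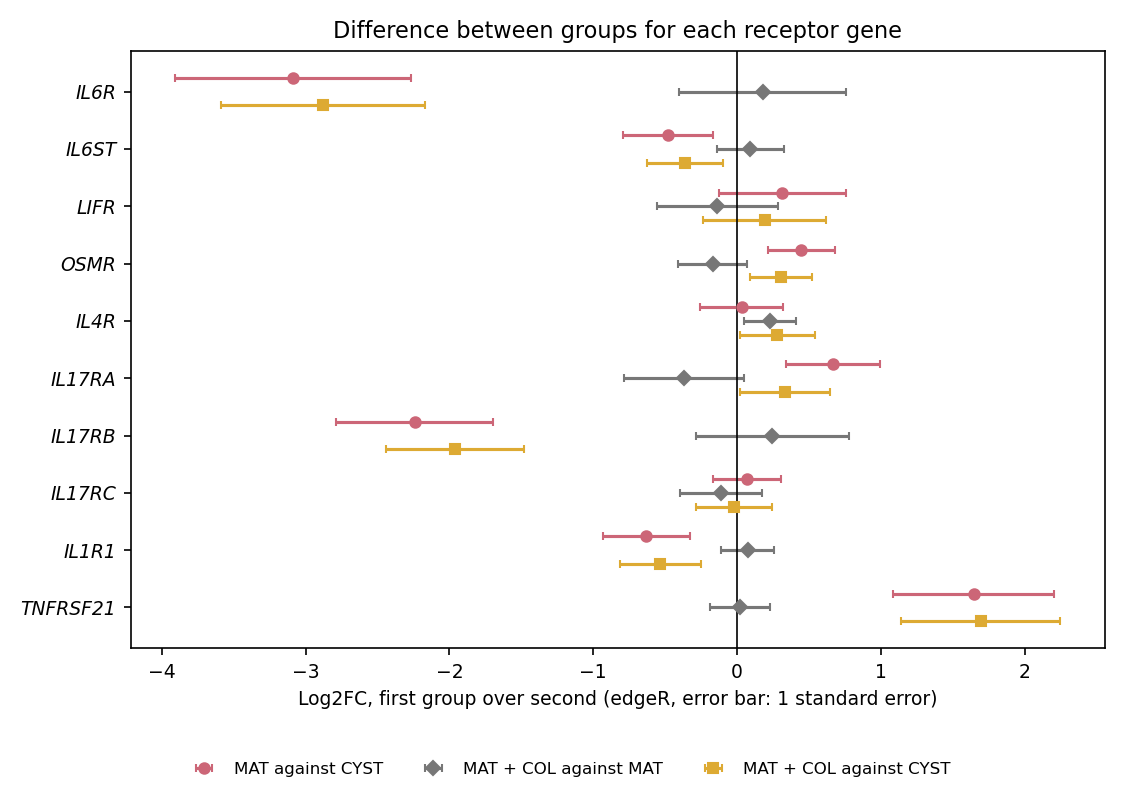
Log2FC of each receptor gene in the 3 comparisons, with bars of 1 standard error. IL6R and IL17RB lay below -1 and TNFRSF21 above 1 against CYST in both comparisons, and no Log2FC was larger than 0.37 in size for MAT + COL against MAT.

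The comparison of MAT with CYST asks what differs between UG-LIKE structures and cysts. Of the 12074 genes tested with edgeR's quasi-likelihood test, 1.79% had an adjusted p under 0.05, and 0 of the 10 receptor genes did. At an unadjusted p under 0.05 there were 3 receptor genes, against 20.7% of all genes. The replicate block gave 10.6% of all genes and 3 receptor genes, IL6R, IL17RB and TNFRSF21, and at an unadjusted p under 0.05 it gave 28% and 5. DESeq2 without the block also called these 3, against 9.68% of the genes to which it gave an adjusted p. TPM ranges of the groups did not overlap for 5 of the 10 receptor genes, against 23.7% of all genes tested. Of the 5, 3 were higher in MAT (OSMR, IL17RA and TNFRSF21, 11.9% of all genes) and 2 lower (IL6R and IL17RB, 11.8%). In normalized log2 CPM the ranges of OSMR and IL17RA overlapped. CYST 3 was at 6.36 for OSMR, above MAT 1 at 6.15, and at 5.46 for IL17RA, above MAT 2 at 5.38. The median Log2FC of the 10 was 0.05, against 0.01 for all genes tested. As the 10 were chosen with these data in view, their counts beside these shares do not show an excess.

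The comparison of MAT + COL with MAT asks what collagen I adds. None of the 12470 genes tested passed in edgeR, with or without the block (0%), and DESeq2 called 0, while 51 genes (0.409%) had an unadjusted p under 0.05 without the block, none of them a receptor gene. The TPM ranges of all 10 receptor genes overlapped, against 3.57% of all genes tested with ranges that did not. The Log2FC ran from -0.37 ± 0.42 for IL17RA to 0.24 ± 0.53 for IL17RB. By TPM, IL17RA and LIFR were lower with collagen in all 3 same-numbered pairs, and IL4R and IL1R1 were higher in all 3. In normalized log2 CPM, IL1R1 was lower with collagen in pair 1, at 6.48 against 6.515. The share of all genes with all 3 pairs in the same direction was not counted. IL17RA was the only receptor gene with an unadjusted p under 0.05 in the blocked edgeR fit, against 4.96% of all genes, and without MAT 3 its Log2FC, without the block, was 0.09. For IL6R the Log2FC was 0.18 ± 0.58, and without MAT 3 it was 1.01.

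MAT + COL and CYST differ in both EGF and collagen I, which are taken singly in the comparisons above. This comparison uses the same CYST libraries as that of MAT with CYST, and the same MAT + COL libraries as that with MAT. Of 12509 genes tested, 1.49% passed without the block and 5.26% with it. Of the receptor genes 0 passed without it and 2 with it, IL6R and TNFRSF21. At an unadjusted p under 0.05 there were 3 receptor genes in each fit, against 21.7% of all genes without the block and 26.3% with it. DESeq2 called IL6R, TNFRSF21 and IL17RB, against 11.6% of genes. TPM ranges did not overlap for TNFRSF21 and IL4R, which were higher in MAT + COL (14.3% of all genes). Nor did they for IL6R and IL17RB, which were lower (10.3%), against 24.7% of all genes in either direction. In normalized log2 CPM the IL4R ranges overlapped.

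Levels of cell type markers moved alongside some of these values. Among the CYST libraries, CYST 3 had the highest IL6R, IL17RB and TNFRSF21 and also the highest sum of fibroblast markers, 4697 TPM against 2051 in CYST 1 and 2855 in CYST 2. DCN measured 696, 794 and 1932 TPM in CYST 1, 2 and 3, while COL6A3 was lowest in CYST 3, at 10.8 TPM. Over the 9 libraries, MAT 2 had the lowest fibroblast sum, 798.9 TPM, with the lowest IL17RB but the highest TNFRSF21. All 10 epithelial markers had a positive Log2FC for MAT over CYST, of which EPCAM, KRT8 and KRT19 passed in edgeR, with the block only. Of 9 fibroblast markers 8 had a negative one, of which DCN passed, with the block only. Smooth muscle and pericyte markers summed to 86.3, 85.3 and 45.3 TPM in CYST 1, 2 and 3, so CYST 3 was the lowest of these. In MAT they summed to 25.1 to 49.0 TPM. The part of these cells in the receptor values was not tested.

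Because the chains act together, their levels were also set against the shared chain in each library. IL6R over IL6ST was 0.203, 0.146 and 1.74 in CYST, 0.051, 0.050 and 0.124 in MAT, and 0.0624, 0.0948 and 0.0992 in MAT + COL. All CYST ratios lay above all others, and only in CYST 3 was IL6R the more abundant transcript. IL17RB over IL17RA was 0.431, 0.281 and 0.577 in CYST, 0.0795, 0.0481 and 0.0544 in MAT, and 0.0734, 0.151 and 0.0719 in MAT + COL, again without overlap. OSMR over IL6ST averaged 0.452 ± 0.262 (SD, n = 3) in CYST and 0.759 ± 0.0705 (SD, n = 3) in MAT, with overlap at 0.752 in CYST 3 and 0.678 in MAT 3. IL17RC over IL17RA averaged 1.38 ± 0.253 in CYST and 1.01 ± 0.434 in MAT. LIFR was at no more than 0.0660 of IL6ST in any library.

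**Figure D3:**
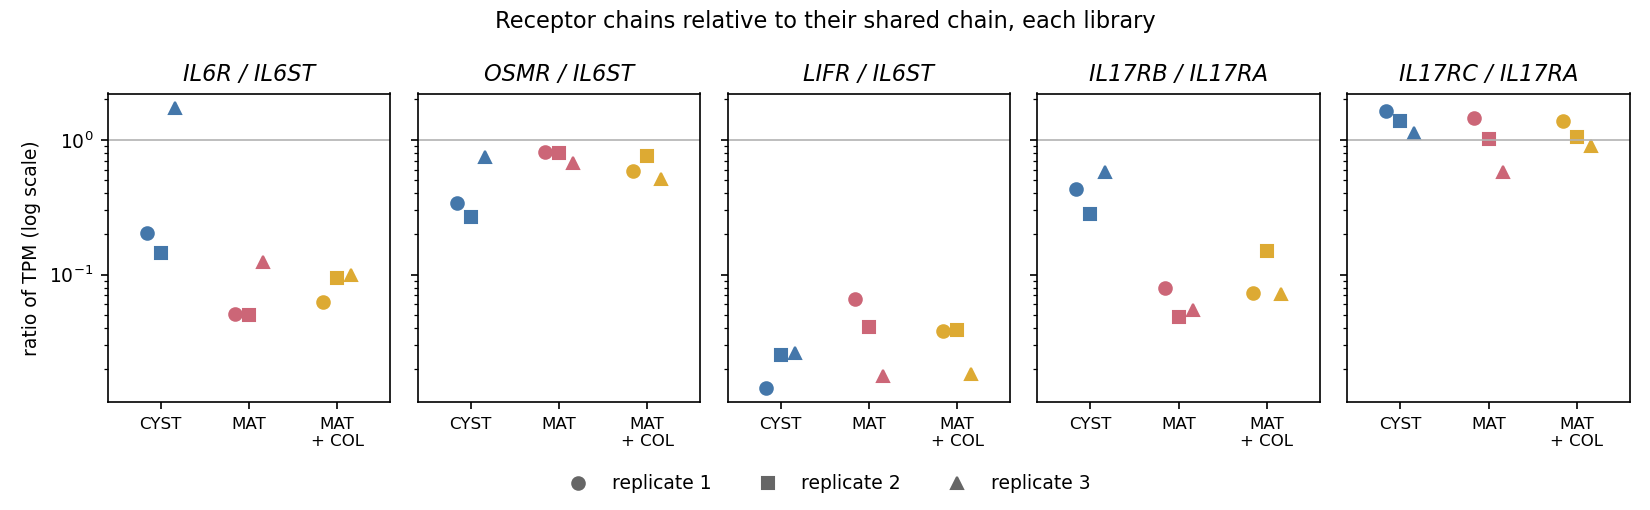
TPM of receptor chains over the shared chain of their family in each library, on a log axis. Ratios of IL6R over IL6ST and of IL17RB over IL17RA were highest in the CYST libraries, and the line marks equal levels.

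Several of the ligands of these receptors had no reads in the cultures. Transcripts of OSM, IL4, IL17A, IL17F and IL25 had 0 counts in all 9 libraries, and the limit that 0 counts allow is 3 counts per library. IL6 was present at 1.05 to 25.6 TPM and varied within groups, from 1.09 in CYST 2 to 25.6 in CYST 3. LIF had at most 21 counts in a library. CLCF1, a ligand of the IL-6 family and the most abundant in its list by the mean over 9 libraries, though not in CYST, where IL6 was higher on average, measured 7.75, 11.5 and 6.01 TPM in CYST and 17.9, 11.8 and 10.8 TPM in MAT, and its Log2FC of 0.69 ± 0.32 did not pass (adjusted p = 0.268, edgeR).

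The partners of the receptors were described with 13 lists of 197 genes by role, of which 188 were found under their symbols and 132 passed the filter on low counts and were tested for MAT against CYST. Of these, 2 passed (1.52%, against 1.79% of all genes tested) and 14 passed with the block (10.6%, against 10.6% of all genes), the latter 11 higher and 3 lower in MAT. These shares are near those of all genes, so the genes named below describe the lists and do not set them apart. For MAT + COL against CYST 3 of 137 passed (2.19%, against 1.49% of all genes) and 6 with the block (4.38%, against 5.26%), and for MAT + COL against MAT 0 of 140 passed with either, with 1 at an unadjusted p under 0.05 without the block.

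Among 10 tested JAK kinases and STAT factors, 9 had a positive Log2FC for MAT over CYST, and the median was 0.53. STAT6, the main factor downstream of IL4R, rose from 43.1, 44.2 and 47.5 TPM in CYST to 109.8, 125 and 103 TPM in MAT, a Log2FC of 1.30 ± 0.19 (adjusted p = 0.0285, edgeR, and 0.0098 with the block). It also rose in MAT + COL, with a Log2FC of 1.44 ± 0.19 (adjusted p = 0.0292, edgeR). Without the block, the call of STAT6 for MAT against CYST was lost when CYST 1, CYST 2, MAT 1 or MAT 2 was left out (adjusted p = 0.128, 0.121, 0.107 and 0.0757, edgeR), with the Log2FC between 1.23 and 1.46 over the 6 such fits. For MAT + COL against CYST it was lost without CYST 1, CYST 2, MAT + COL 1 or MAT + COL 2 (adjusted p = 0.14, 0.112, 0.0952 and 0.135, edgeR). STAT2, which relays interferon signals, and TYK2, a JAK kinase, passed in edgeR only with the block, with Log2FC of 0.62 ± 0.16 and 0.69 ± 0.16 in that fit (adjusted p = 0.0458 and 0.0378). DESeq2 called all 3 without it. Of 12 STAT3-responsive genes only JUNB passed in edgeR, and only with the block, at 0.80 ± 0.17 in that fit against 0.87 ± 0.38 without it. DESeq2 without the block did not call JUNB. Of 17 genes that restrain JAK and STAT signals or shed receptors, 0 passed in either edgeR fit or in DESeq2. Without the block 0 had an unadjusted p under 0.05 in edgeR (against 20.7% of all genes), while SOCS2 did with the block. The protease ADAM10, the most abundant by the mean over 9 libraries though below PTPN2 in CYST, had a Log2FC of 0.40 ± 0.26.

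The IL-4 and IL-13 list held 3 tested genes and the list of other IL-17 receptor chains and ligands held 1, IL17RD, and none of these passed in either edgeR fit or in DESeq2, with 1 of the IL-4 and IL-13 list and 0 of the other at an unadjusted p under 0.05. IL13RA1, the partner of IL4R in one of its receptors, was far more abundant than IL4R, at 134.9 to 297 TPM over the 9 libraries, and its Log2FC was 0.32 ± 0.34. Of 22 adaptors and NF-kB relay genes 2 passed with the block, RELB at 1.72 ± 0.32 and TAB3 at 1.30 ± 0.24 in that fit. Without the block they were at 1.76 ± 1.05 and 1.24 ± 0.45, and DESeq2 without it called neither.

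Of 17 genes that respond to IL-17 and IL-1, MMP13, a collagenase, rose from 375, 618 and 456 TPM in CYST to 3452, 3556 and 1919 TPM in MAT, with a Log2FC of 2.61 ± 0.30 (adjusted p = 0.0191, edgeR). Its call without the block was lost without CYST 1, CYST 2 or MAT 1 (adjusted p = 0.0707, 0.0702 and 0.0907, edgeR), with the Log2FC between 2.45 and 2.83 over the 6 such fits. In MAT + COL against CYST MMP13 also passed, at 2.15 ± 0.25 (adjusted p = 0.0259, edgeR), and not without CYST 1, CYST 2, MAT + COL 1 or MAT + COL 2 (adjusted p = 0.101, 0.0834, 0.0903 and 0.123, edgeR). The chemokines CXCL2 and CXCL5 passed in edgeR only with the block, and were lower in MAT, at -1.56 ± 0.33 and -1.24 ± 0.25 in that fit and -1.58 ± 0.41 and -1.06 ± 0.44 without the block. CXCL2 measured 66.7, 38.1 and 26.3 TPM in CYST against 16.8, 9.13 and 17.3 TPM in MAT. DESeq2 without the block called CXCL2 and not CXCL5. None of the 10 tested IL-1 family ligands and other IL-1 receptor chains passed in either edgeR fit or in DESeq2. In edgeR, 2 had an unadjusted p under 0.05 without the block (against 20.7% of all genes), and more did with it (against 28%). IL1R2, the decoy receptor for IL-1, varied from 0.68 to 258 TPM within the CYST group alone.

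Of 10 other TNF receptors, CD40 was lower in MAT and passed in edgeR only with the block, at -1.81 ± 0.35 in that fit and -1.72 ± 0.52 without it. Of 11 death domain adaptors and caspases, CASP8 and BIRC3, an inhibitor of apoptosis, passed in edgeR only with the block. They were at 0.998 ± 0.168 and 0.67 ± 0.16 in that fit and 0.98 ± 0.32 and 0.67 ± 0.27 without it. DESeq2 without the block called CD40 and CASP8 and not BIRC3. The interferon receptor chains IFNAR1 and IFNGR1 passed in MAT in edgeR only with the block, at 0.95 ± 0.16 and 0.95 ± 0.17 in that fit. DESeq2 called both for MAT against CYST without it. IFNAR1 also passed without the block in MAT + COL against CYST (0.99 ± 0.17, adjusted p = 0.0439, edgeR). That call was lost without any 1 of the 6 libraries (adjusted p from 0.0557 to 0.176, edgeR). IFNAR1 and IFNGR1 belong to a list of 14 tested receptor chains, with 12 positive values for MAT against CYST. Of 6 other chains of the IL-6 family, 2 were tested and none passed in either edgeR fit or in DESeq2, with 1 at an unadjusted p under 0.05, and the most abundant was IL27RA at -0.05 ± 0.26.

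**Figure D4:**
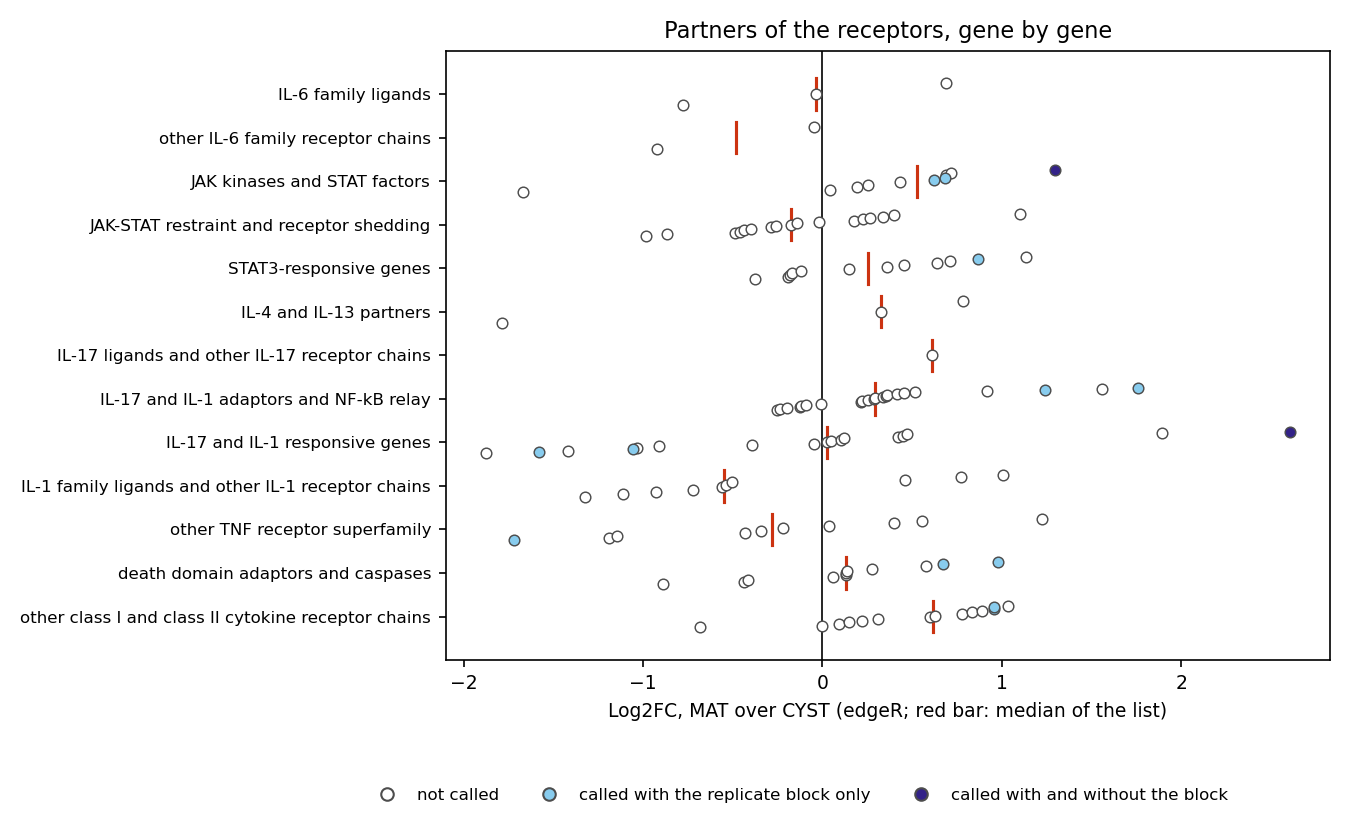
Log2FC of MAT over CYST, from the fit without the replicate block, for each tested gene of the 13 lists, with red bars for list medians. STAT6 and MMP13, the dark points, passed without the block, and 12 more genes passed with it.

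Genes whose levels followed those of the 3 most divergent receptor genes were ranked by Pearson's r of log2 CPM over 9 libraries, among 12857 genes. The points share the 3 groups and their libraries, so r is a description. For IL6R they were CREM (0.969), SPCS2 (0.961) and MRPL42 (0.956). CREM, a cAMP-responsive transcription factor, measured 18.3, 19.7 and 37.6 TPM in CYST and 4.28, 4.95 and 9.86 TPM in MAT, with CYST 3 highest as for IL6R. For IL17RB they were AEBP1 (0.981), TAGLN (0.969) and MMP3 (0.969). TAGLN, which is typical of smooth muscle, measured 104, 66.1 and 106 TPM in CYST and 39.1, 16.2 and 45.1 TPM in MAT. Among the CYST libraries, IL17RB and MMP3 were highest in CYST 3, TAGLN was nearly equal in CYST 1 and CYST 3, and AEBP1 was highest in CYST 1. AEBP1 measured 3.98 TPM in CYST 1 and 3.23 TPM in CYST 3. In CYST 3 the sum of smooth muscle and pericyte markers was lowest and that of fibroblast markers highest. The part of these cells in the IL17RB values was not tested. For TNFRSF21 they were NDRG2 (0.994), TMC5 (0.992) and YPEL5 (0.990). NDRG2 measured 31.1, 46.2 and 133 TPM in CYST and 228, 344 and 237 TPM in MAT. Between the receptor genes themselves, r was 0.936 for IL6R with IL17RB and -0.839 for IL1R1 with TNFRSF21.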

How the data were processed

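Libraries were made with the SMART-Seq HT PLUS kit from RNA of 9 cultures and sequenced as paired-end reads. Reads were trimmed and mapped to ARS-UCD2.0 by the authors with the default settings of CLC Genomics Workbench. The deposited counts are unnormalized reads on each of 20679 genes. The deposited TPM values are the authors' levels of the same genes and libraries. The annotation release and strand setting are not given in the sources used here. Intervals and floors from such reads cover counting error only.

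Each comparison was fitted on its 6 libraries with edgeR 4.0.16 (R 4.3.3), using filterByExpr (minimum count of 10), TMM and the quasi-likelihood test. P-values were adjusted by the Benjamini-Hochberg method over all genes tested. Genes called had an adjusted p under 0.05. The replicate number was also used as a block. Same-numbered libraries deviated together from their group means (correlations of 0.278 to 0.687, against -0.524 to 0.111 for other pairs), so the numbers were taken as pairing the libraries. The source of the pairing is the numbers in the labels and this check, as no label says that a number marks an animal. The library names carry other numbers (1, 2 and 4 in CYST, 1, 3 and 7 in MAT, and 2, 4 and 8 in MAT + COL), whose meaning is not given in the sources used here, and all blocked values rest on the replicate numbers. Other alternatives were DESeq2 1.42.0, RLE factors, no filter, all 9 libraries, limma 3.58.1 on log2(TPM + 1) and log2(TPM + 0.1), the study's criteria, and leaving out each library. DESeq2 with the block was added after seeing the data. The edgeR fits of MAT against CYST and MAT + COL against MAT were also run on simulated counts to check the Log2FC. The simulation built in a shift shared by replicate number, so it does not show which fit suits these data.

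The receptor genes and gene lists were chosen with earlier results of these data known. Genes named from a list were those called with or without the block, at most 4 by size of Log2FC, or otherwise the most abundant. OSM, IL4, IL17A, IL17F, IL25, IL6, LIF and SOCS2 were named after their values were seen. Of the list symbols, 9 were not found in the tables and were not analysed here. Sequences are not shown.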

Additional observations from a re-analysis of the deposited data

How the results depend on the processing

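The number of genes called for MAT against CYST, 216, was 1277 with the replicate block, 1235 with DESeq2, 1957 with DESeq2 and the block (chosen after seeing the data) and 580 with all 9 libraries in the fit. Leaving out 1 library gave 5 to 267 genes, with 7 without CYST 1, 5 without CYST 2, 9 without MAT 1, 32 without MAT 2 and 122 without MAT 3. For MAT + COL against CYST, 186 genes became 658 with the block, 1419 with DESeq2, 1850 with both and 601 with all 9 libraries. Leaving out 1 library gave 3 to 186, with 7 without CYST 1, 4 without CYST 2, 112 without CYST 3, 6 without MAT + COL 1 and 3 without MAT + COL 2. A leave-one-out fit has fewer libraries, and otherwise the cause was not tested. For MAT + COL against MAT, 0 genes became 1 with DESeq2 and the block and stayed 0 under the other alternatives. Genes called from the lists went from 2 to 14 with the block for MAT against CYST and from 3 to 6 for MAT + COL against CYST. With limma on log2(TPM + 1) the calls were 139 higher and 100 lower for MAT against CYST, against 102 and 114 in edgeR, and 115 and 68 for MAT + COL against CYST, against 84 and 102.

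The Log2FC of IL6R, IL17RB and TNFRSF21 against CYST kept their sign under all 14 alternatives. Leaving out CYST 3 moved IL6R to -1.83 and TNFRSF21 to 2.64 for MAT against CYST, and to -1.62 and 2.68 for MAT + COL against CYST. Without MAT 3, IL6R was 1.01 for MAT + COL against MAT. Several values near 0 changed sign when 1 library was left out, among them IL4R for MAT against CYST and TNFRSF21 for MAT + COL against MAT. Depth limited IL17RB and IL6R most, at 16 reads in MAT 1.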
